A study of Mus musculus with 9 samples.

Results

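Mouse gene symbols that end in os (os1, os2, os3) are given to transcripts read from the strand opposite to a named gene, and the part before the ending is the symbol of that gene, here called the partner. Members were the symbols of the count table with such an ending whose partner symbol was also listed and that held at least 1 count over the 9 libraries. Of 24419 symbols, 154 had such a name and a listed partner, 54 of these were at 0 in every library, and 100 were members. They had 99 partners, because Bcas3os1 and Bcas3os2 share Bcas3. RNA came from livers of male FVB mice on a normal diet, with 3 libraries in each of the groups CTRL, MODEL1 and MODEL2. MODEL1 mice, aged 18 weeks, carried NFE2L2 G31A (the transcription factor NRF2) together with CTNNB1 T41A (beta-catenin). MODEL2 mice, aged 19, 20 and 22 weeks, carried NFE2L2 T80K together with CTNNB1 T41A. Both were made by hydrodynamic tail vein injection of plasmids with a Sleeping Beauty transposase, which delivers the plasmids to a part of the hepatocytes. Injection was at 6 to 8 weeks of age, with 20 µg of the NFE2L2 plasmid and 20 µg of the CTNNB1 plasmid in 2 ml of saline. The injection age of each mouse is not given, so time since injection may also differ between the models. CTRL mice were 13, 13 and 17 weeks old, and the labels do not say whether they were injected. Age therefore differed between every pair of groups, and age and genotype cannot be told apart without assuming how age acts.

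Opposite-strand transcripts are mostly long noncoding RNAs. Some start beside the promoter of the partner and run away from it, some run back across the partner's last exons, and some lie within the partner. A few are known to act on the partner, for example by masking a splice site, by pairing with its RNA or by changing the chromatin of a shared promoter, but for most no role is known. A minority are separate protein-coding genes that carry the name only because of their position.

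Depth and strand set what could be read from these pairs. Libraries held 219504 to 325177 counts, so 3 counts, which bounds what 0 counts can stand for, came to 9.23 to 13.7 CPM (counts scaled by library total). How reads were assigned to strands at counting is not given in the sources used here, so where a member and a gene on the other strand share exon bases their reads cannot be told apart. The labels name no kit, and whether the kit marked strand is likewise not given, so it could not be settled whether a count under a member's name stands for RNA of the member's strand or of the partner's. The same holds for a count under a partner's name. Every value below is a count under the symbol's name, and a direction given for a member or a partner may be that of RNA from the other strand. All 12 hepatocyte markers had counts, but they summed to only 1814 to 3961 CPM, and albumin (Alb) held 94 to 337 counts per library. The ribosomal RNA precursor Rn45s took over 8% of counts in CTRL replicate 1 and MODEL1 replicates 1 and 3, at 10.3%, 13.4% and 8.62%, and 2.20% to 6.89% in the others.

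The 5 called members with a RefSeq start-site window are shown here because they carry the differences between groups described below. Each window runs from 250 bases before the annotated start to 50 bases after it, on GRCm38.p6, 5′ to 3′ on the transcript's own strand, with the 50 transcribed bases in capitals. Acss2os is at chr2:155556881-155557180 on the minus strand, Rbm3os at chrX:8145177-8145476 on the plus strand and Pitpnm2os1 at chr5:124229475-124229774 on the plus strand. Phtf1os is at chr3:103968267-103968566 on the minus strand and Ube4bos3 at chr4:149334389-149334688 on the plus strand.
Acss2os: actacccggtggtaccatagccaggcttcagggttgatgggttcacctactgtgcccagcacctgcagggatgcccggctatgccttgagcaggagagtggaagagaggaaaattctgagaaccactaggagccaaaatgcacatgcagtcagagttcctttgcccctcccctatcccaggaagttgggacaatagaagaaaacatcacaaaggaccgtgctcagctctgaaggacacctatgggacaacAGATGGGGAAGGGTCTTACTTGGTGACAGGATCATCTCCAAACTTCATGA
Rbm3os: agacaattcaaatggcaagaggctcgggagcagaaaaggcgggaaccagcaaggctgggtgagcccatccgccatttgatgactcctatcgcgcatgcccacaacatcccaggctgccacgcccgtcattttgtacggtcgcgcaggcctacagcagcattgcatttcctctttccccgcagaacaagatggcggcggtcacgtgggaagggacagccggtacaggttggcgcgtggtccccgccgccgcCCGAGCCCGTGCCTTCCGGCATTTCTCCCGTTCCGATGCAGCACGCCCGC
Pitpnm2os1: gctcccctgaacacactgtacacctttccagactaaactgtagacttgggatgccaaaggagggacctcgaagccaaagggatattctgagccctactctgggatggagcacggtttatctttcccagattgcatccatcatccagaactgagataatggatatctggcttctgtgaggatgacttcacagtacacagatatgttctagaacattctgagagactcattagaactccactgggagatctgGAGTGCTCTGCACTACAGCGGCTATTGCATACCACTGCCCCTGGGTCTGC
Phtf1os: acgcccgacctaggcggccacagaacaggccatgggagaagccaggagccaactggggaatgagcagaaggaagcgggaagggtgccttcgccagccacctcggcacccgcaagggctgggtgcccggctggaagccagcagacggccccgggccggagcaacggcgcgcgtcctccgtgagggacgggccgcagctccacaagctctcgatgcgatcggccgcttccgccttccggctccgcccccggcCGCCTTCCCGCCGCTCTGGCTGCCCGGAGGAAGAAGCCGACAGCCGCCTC
Ube4bos3: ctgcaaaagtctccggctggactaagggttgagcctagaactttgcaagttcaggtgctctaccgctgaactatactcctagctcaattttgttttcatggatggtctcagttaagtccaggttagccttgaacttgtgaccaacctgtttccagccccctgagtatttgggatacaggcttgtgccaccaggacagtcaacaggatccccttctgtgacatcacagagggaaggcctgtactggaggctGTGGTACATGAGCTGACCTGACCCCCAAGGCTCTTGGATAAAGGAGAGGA

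The windows fell into 2 kinds by their CpG count. Phtf1os held 32 CpG dinucleotides at 72.0% GC and Rbm3os 27 at 62.7% GC. By GENCODE, the starts of both lie near that of the partner, 471 and 451 bp away. The windows were set on RefSeq starts, and the GENCODE start of Phtf1os lies outside its window. Acss2os, Pitpnm2os1 and Ube4bos3, which start inside the partner, held 3, 3 and 2 CpG at 52.0%, 49.0% and 50.7% GC. Over all 32851 windows the median was 7 CpG. The core letters CTTTGA, recognised by the TCF/LEF partners of beta-catenin, and TGACNNNGC, the core of the antioxidant response element used by NRF2, were searched on both strands. Neither set of letters was in any of these 5 windows, against 16.0% and 12.4% of all windows. Among 38 windows of 35 members described by name, 4 (10.5%) held CTTTGA and 7 (18.4%) held TGACNNNGC. A match or its lack describes these letters in this window only.

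As a group the members' symbols held far more counts than their partners' symbols, and for the reason just given this is not an order of the RNA levels of the 2 strands. The 100 members held 36672 counts, 1.52% of all counts, and the 99 partners held 5528, or 0.229%. The member's total exceeded the partner's in 70 pairs, was below it in 26 and equalled it in 4, and 19 partners were at 0 in every library. Per kilobase of exon, which corrects for length, the level under the member's name was the higher in 81 of 95 pairs that could be placed on GENCODE M21 (mm10). In each library members held 1.26% to 1.71% of counts and partners 0.207% to 0.251%. By group the members' shares were 1.26%, 1.36% and 1.47% in CTRL, 1.59%, 1.71% and 1.47% in MODEL1 and 1.60%, 1.63% and 1.64% in MODEL2. All MODEL2 shares were above CTRL, while MODEL1 replicate 3 met CTRL replicate 3 at 1.47%. The total behind these shares includes Rn45s, which took 8.62% of counts in that MODEL1 library and 2.43% in that CTRL library. Shares without Rn45s were not computed, so no difference of either model from CTRL, or between the models, is read from these shares.

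**Figure D1:**
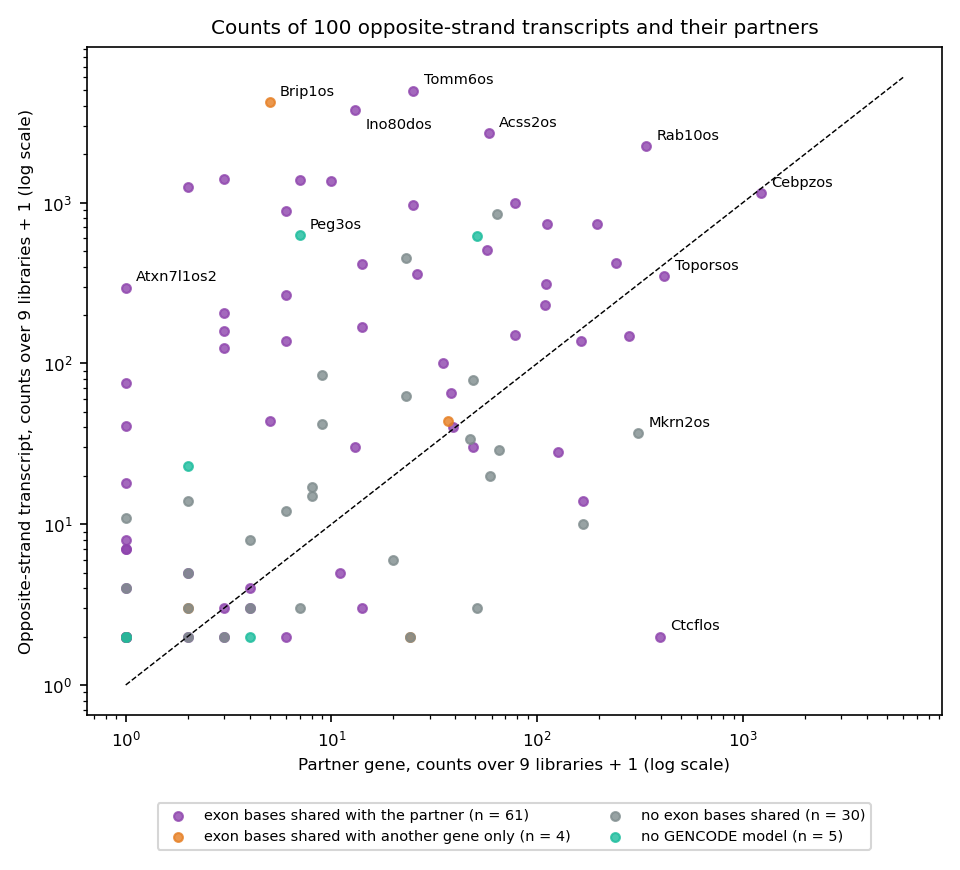
Counts summed over the 9 libraries plus 1 for each of the 100 members (vertical, log scale) against its partner gene (horizontal, log scale), coloured by exon overlap in GENCODE M21, with equality as a dashed line. Members lie above the line in 70 pairs, and Ctcflos, with 1 count against 392, is the farthest below it.

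Most of these counts came from a few members. The median member total was 29 counts, 18 members had a single count each, 38 were under 10 and 10 reached 1000 or more. The 5 largest held 48.7% of all member counts. Tomm6os, opposite the gene of a small subunit of the mitochondrial import pore, held 427, 485 and 545 counts in CTRL, 698, 536 and 522 in MODEL1 and 625, 595 and 536 in MODEL2. Its groups overlapped, and Tomm6 itself held 24 counts in all, a level of 8.77 CPM per kilobase against 708 for Tomm6os. Besides 219 bases of Tomm6 exon, Tomm6os shares 1221 exon bases with Prickle4, which held 62 counts. Brip1os held 4219 counts against 4 for Brip1, a DNA repair helicase, from whose start it begins 177 bp away. It shares no exon base with Brip1, but 800 with Med13 and 512 with Ints2, at 24 and 687 counts. Ino80dos, opposite a subunit of the INO80 chromatin remodeller, held 3734 counts against 12 for Ino80d, with 431 shared bases.

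Rab10os and the next largest members showed the same order except for Cebpzos. Rab10os held 2235 counts against 336 for Rab10, a small GTPase of membrane traffic. Scpep1os held 1408 against 2 for Scpep1, a serine carboxypeptidase, and Ppifos 1374 against 6 for Ppif, the mitochondrial cyclophilin D. Sorbs2os, opposite a cytoskeletal adaptor, held 1356 against 9, and Uckl1os, opposite a uridine-cytidine kinase homologue, 1249 against 1. Cebpzos, which GENCODE types as protein-coding, held 1143 counts against 1218 for Cebpz, a nucleolar CCAAT-binding protein. Per kilobase Cebpzos was the higher, at 420 CPM against 108. Acss2os, the fourth largest at 2689 counts against 57 for Acss2, was called in both models and is described below. The other 9 members gave 27 tests over the 3 comparisons, and edgeR and DESeq2 each called 0 at an adjusted p under 0.05. In 2 tests the unadjusted edgeR p was under 0.05, Ino80dos in MODEL2 against CTRL and Cebpzos between the models. Of all genes tested, edgeR called 22.8%, 13.3% and 7.28% in MODEL1 against CTRL, MODEL2 against CTRL and between the models. Unadjusted, 33.8%, 26.2% and 20.6% had an edgeR p under 0.05. Acss2os was set aside because it was called, so these counts are not read as a result about large members.

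Members differed by how they lie against the partner. Of the 100, 61 share exon bases with the partner, 4 only with some other gene on the opposite strand and 30 with none, and 5 had no GENCODE model. The 61 held 29359 counts, with a median total of 124, and 45 exceeded the partner. The 30 without shared exon bases held 1779 counts, with a median total of 9.5, and 18 exceeded the partner. Their median levels were 30.0 and 2.11 CPM per kilobase. Members that share exon bases were thus both the more numerous and the more highly counted, and the part that reads of the partner have in those counts was not tested.

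**Figure D2:**
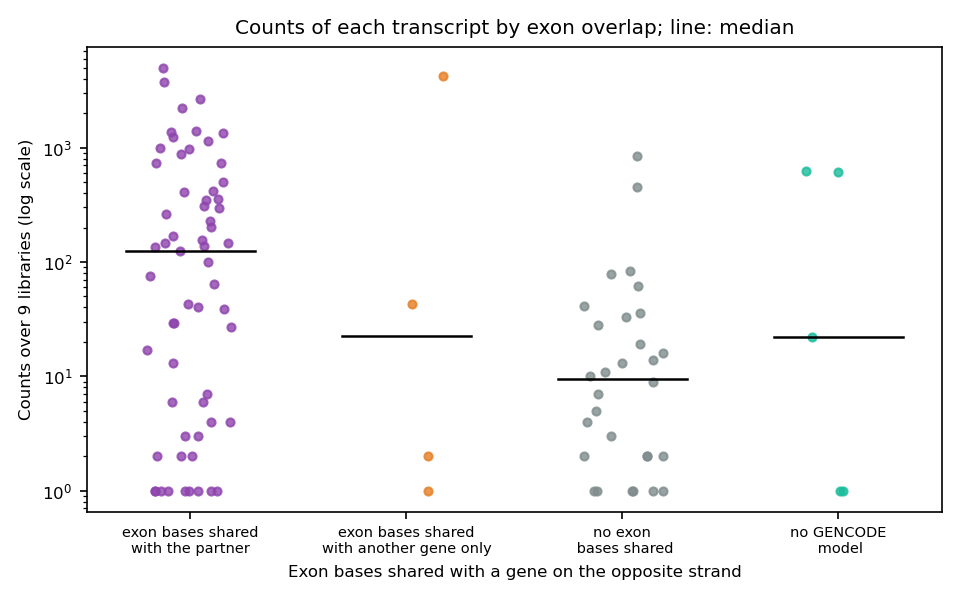
Counts of each member over the 9 libraries (log scale) by class of exon overlap with genes on the opposite strand, 1 point per member, with the median as a line. The median is 124 counts where exon bases are shared with the partner and 9.5 where none are shared.

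Position relative to the start gave a second split. In 31 pairs the member lies inside the partner and in 31 the start regions overlap. In 13 the ends overlap, in 12 the genes are apart with starts facing, in 5 apart with ends facing, and in 3 the member lies around the partner. GENCODE starts lay within 1000 bp of each other in 27 pairs, while the windows are set on RefSeq starts. The median CpG count was 27 in the 21 of these with a window and 5 in the 55 farther pairs with one. The near-start members had the lower median total, 13 counts against 34.5, and exceeded the partner in 18 of 27 pairs, against 48 of 68.

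Differences between groups were tested with edgeR's quasi-likelihood test over 2639 genes, of which 40 were members. The other 60 members, with 1 to 64 counts, did not pass the filter on low counts. A member could pass it through the group in which it was high. Of the partners 17 were tested, and in 11 pairs both genes were. Log2 fold changes below are the fit's, after TMM scaling of the libraries, and a ratio of plain CPM is larger by 0.16 for MODEL1 and 0.11 for MODEL2 against CTRL on the log2 scale. In MODEL1 against CTRL, 7 of 40 tested members (17.5%) differed, against 22.8% of all genes tested. Of these 4 were higher, where 11.9% of all genes were, and 3 were lower, where 11.0% were. In MODEL2 against CTRL, 3 members (7.5%) differed, against 13.3% of all genes. A single member was higher and 2 were lower, beside 8.30% and 4.96% of all genes. Between the models, 2 members (5%) differed, against 7.28% of all genes, with 1 in each direction beside 3.87% and 3.41%.

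The order of these shares depended on the fit, so they are not read as a difference between members and other genes. With age as a covariate members were called in 5%, 5% and 12.5% of tests and all genes in 11.3%, 2.69% and 3.83%. With only the 2 groups fitted, MODEL2 against MODEL1 called 15.4% of members and 11.1% of all genes. The members' median log2 fold changes were 0.04, 0.05 and -0.04, against 0.00, 0.00 and 0.01 over all genes tested. At an unadjusted p under 0.05 the member counts were 11, 9 and 9 of 40 (27.5%, 22.5% and 22.5%), against 33.8%, 26.2% and 20.6% of all genes. The 2 comparisons with CTRL share their control libraries and are given side by side for that reason, without a measure of their likeness. Without the 3 Rn45s-rich libraries, which leaves 2 CTRL libraries and 1 MODEL1 library whose spread is assumed to be that of the other groups, 1 member remained called in MODEL1 against CTRL, Peg3os. With age as a covariate 2 members were called there, Acss2os and Peg3os. These samples are labelled as separate mice, 1 library each.

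**Figure D3:**
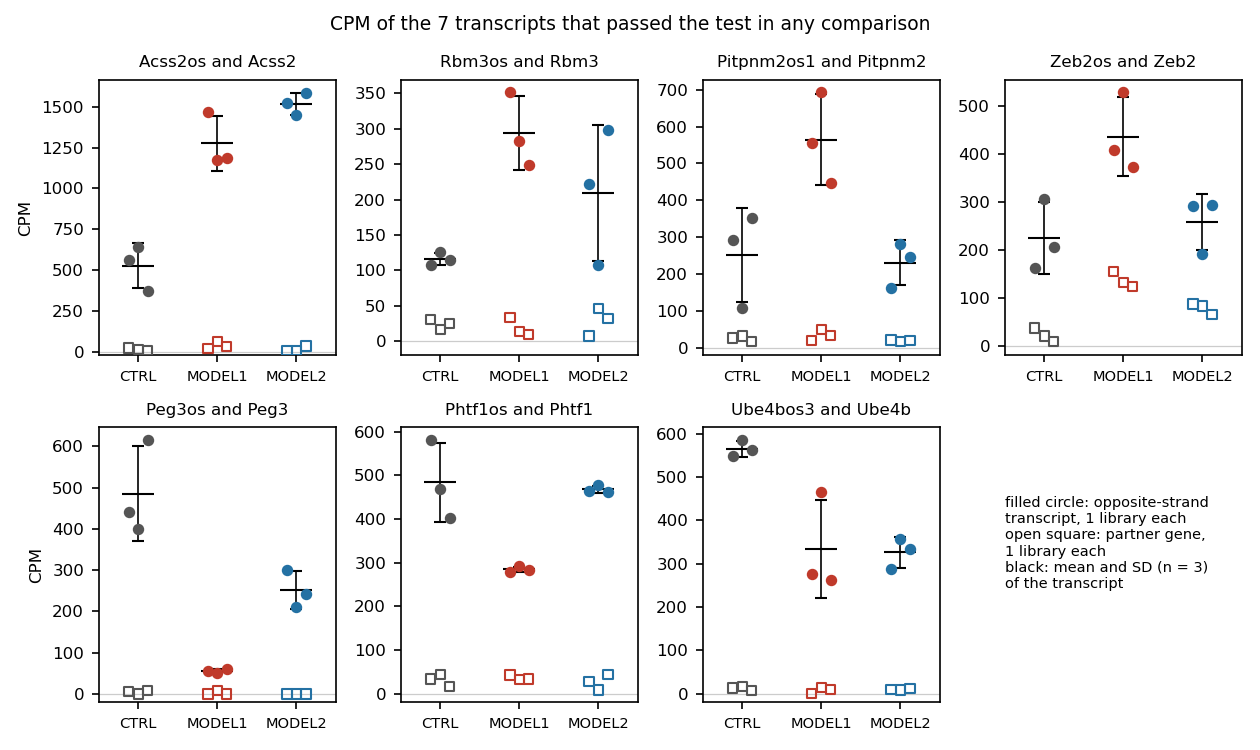
CPM in each library by group for the 7 members called in at least 1 comparison (filled circles, with mean and SD in black, n = 3) and their partners (open squares). All partners except Zeb2 lie near 0 on the scale of the member. Peg3os is lowest in the MODEL1 libraries, at a mean of 55.8 CPM, and Acss2os is higher in all 6 model libraries than in CTRL.

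Acss2os was the member that rose in both models. Its locus, chr2:155547040-155556930 on the minus strand, lies inside Acss2, which makes acetyl-CoA from acetate in cytosol and nucleus, and 335 of its 629 exon bases are shared with Acss2 exons. It held 168, 159 and 91 counts in CTRL, 447, 257 and 386 in MODEL1 and 439, 349 and 393 in MODEL2. Every model library was above every CTRL library, also in CPM, where CTRL averaged 527 ± 138, MODEL1 1276 ± 168 and MODEL2 1517 ± 67.6 (SD, n = 3). The log2 fold change was 1.13 ± 0.23 (SE) in MODEL1 (edgeR adjusted p = 0.000979) and 1.39 ± 0.24 in MODEL2 (edgeR adjusted p = 0.000270). MODEL2 against MODEL1 gave 0.26 ± 0.23 (edgeR adjusted p = 0.583). Without the Rn45s-rich libraries the MODEL1 value was 0.87 (edgeR adjusted p = 0.125).

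Acss2 itself held too few counts for the test, with 7, 4 and 2 in CTRL, 6, 14 and 11 in MODEL1 and 2, 2 and 9 in MODEL2. Its ratio of scaled counts to CTRL was 2.22 in MODEL1 (exact 95% counting interval 1.13 to 4.62) and 1.01 in MODEL2 (0.433 to 2.37). These intervals cover counting error only. In bulk liver a change in a transcript can come from the number of cells that make it or from the amount per cell, which cannot be told apart here.

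Peg3os fell in both models and most in MODEL1. Peg3 is an imprinted gene, expressed from the paternal copy, that encodes a large zinc finger protein, and Peg3os was placed by RefSeq at chr7:6706760-6707624, with all 865 bases inside Peg3 exons. It held 131, 99 and 150 counts in CTRL, 17, 11 and 20 in MODEL1 and 87, 51 and 60 in MODEL2. These 3 groups did not overlap in CPM, with CTRL at 485 ± 114, MODEL2 at 251 ± 45.9 and MODEL1 at 55.8 ± 5.70 (SD, n = 3). It fell by 3.21 ± 0.29 (SE) on the log2 scale in MODEL1, to 0.108 of the CTRL level (edgeR adjusted p = 2.7e-08). In MODEL2 it fell by 1.03 ± 0.25 (edgeR adjusted p = 0.00741). MODEL2 was above MODEL1 by 2.18 ± 0.29 (edgeR adjusted p = 5.0e-05). Peg3 held 6 counts in all, 2, 0 and 2 in CTRL and 2 in 1 MODEL1 library, which allowed no comparison of the pair. The MODEL1 difference kept its call without the Rn45s-rich libraries and with age as a covariate, while the MODEL2 difference did not pass with age as a covariate, at -1.16 (edgeR adjusted p = 0.331), or without MODEL2 replicate 2, at -0.92 (0.0575).

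Ube4bos3 was also lower in both models, to a like extent. Ube4b is a ubiquitin chain elongation factor, and Ube4bos3, at chr4:149334639-149335897 on the plus strand, shares 296 of 756 exon bases with it. It held 163, 145 and 137 counts in CTRL, 84, 102 and 85 in MODEL1 and 83, 86 and 83 in MODEL2. No model library reached a CTRL library, and the 2 models overlapped. The log2 fold change was -0.93 ± 0.23 (SE) in MODEL1 (edgeR adjusted p = 0.00458). The MODEL2 log2 fold change was -0.91 ± 0.23 (edgeR adjusted p = 0.00938), and MODEL2 against MODEL1 gave 0.02 ± 0.23 (edgeR adjusted p = 0.983). Ube4b held 24 counts, 0 to 4 in each library. Both calls were lost with age as a covariate, at -0.78 in MODEL1 and -0.67 in MODEL2 (edgeR adjusted p = 0.173 and 0.608). The MODEL1 call was also lost without the Rn45s-rich libraries, at -0.62 (0.341), and the MODEL2 call without MODEL2 replicate 1, at -0.85 (0.0577), and with no filter on low counts, at -0.86 (0.0663).

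Phtf1os was lower in MODEL1. It starts on the opposite strand of Phtf1, which encodes a membrane protein expressed strongly in testis, at chr3:103964536-103968581, and its 4046 exon bases share 448 with Phtf1 and 2101 with Rsbn1. It held 173, 116 and 98 counts in CTRL, 85, 64 and 92 in MODEL1 and 134, 115 and 115 in MODEL2. In CPM the 3 MODEL1 libraries lay below all others, at 285 ± 6.26 against 484 ± 90.8 in CTRL and 468 ± 7.62 in MODEL2 (SD, n = 3). The log2 fold change was -0.92 ± 0.23 (SE) in MODEL1 (edgeR adjusted p = 0.00558) and -0.18 ± 0.23 in MODEL2 (edgeR adjusted p = 0.678). MODEL2 against MODEL1 gave 0.74 ± 0.23 (edgeR adjusted p = 0.0563), which missed the threshold. It passed with age as a covariate, at 1.02 (edgeR adjusted p = 0.0365), and with only the 2 models fitted, at 0.73 (0.0221). The MODEL1 call was lost when age was a covariate, where the value shrank to -0.45 (0.468), and when the Rn45s-rich libraries were left out, where it was -0.90 (0.162). Phtf1 held 2 to 13 counts per library.

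Pitpnm2os1 rose in MODEL1 alone of the 2 models, and the models differed. Pitpnm2 encodes a phosphatidylinositol transfer protein, and Pitpnm2os1, at chr5:124229725-124237137 on the plus strand, lies inside it without sharing an exon base with any gene on the other strand. It held 87, 27 and 86 counts in CTRL, 169, 152 and 145 in MODEL1 and 47, 68 and 61 in MODEL2. All MODEL1 libraries were above all others, at 565 ± 124 CPM against 251 ± 127 in CTRL and 230 ± 61.0 in MODEL2 (SD, n = 3). The log2 fold change was 1.03 ± 0.30 (SE) in MODEL1 (edgeR adjusted p = 0.0154), -0.24 ± 0.32 in MODEL2 (edgeR adjusted p = 0.692) and -1.27 ± 0.31 for MODEL2 against MODEL1 (edgeR adjusted p = 0.0144). CTRL replicate 2 was the lowest library, and without it the MODEL1 value was 0.69 and the call was lost (edgeR adjusted p = 0.0698), as it was without MODEL1 replicate 1 (0.0540) or 2 (0.0639). It was also lost without the Rn45s-rich libraries, at 1.32 (0.0706), and with age, at 0.58 (0.508). The call between the models was lost without MODEL1 replicate 2 (0.0703), MODEL2 replicate 1 (0.101) or 3 (0.0624) and without the Rn45s-rich libraries (0.0946). Pitpnm2 held 4 to 11 counts per library, with a ratio of 1.30 (0.707 to 2.44) in MODEL1 against CTRL.

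Rbm3os rose in MODEL1. Rbm3 is a cold-inducible RNA-binding protein, and Rbm3os, at chrX:8145429-8147964 on the plus strand, shares 94 of its 971 exon bases with it. It held 32, 31 and 28 counts in CTRL, 107, 62 and 81 in MODEL1 and 64, 26 and 74 in MODEL2. MODEL1 libraries were all above CTRL, at 294 ± 52.3 CPM against 116 ± 8.86, while MODEL2, at 209 ± 95.7, overlapped both (SD, n = 3). The log2 fold change was 1.22 ± 0.33 (SE) in MODEL1 (edgeR adjusted p = 0.00969) and 0.74 ± 0.34 in MODEL2 (edgeR adjusted p = 0.172), and the models differed by -0.48 ± 0.32 (edgeR adjusted p = 0.429). The call was lost without MODEL1 replicate 1, at 0.96 (edgeR adjusted p = 0.0653), without the Rn45s-rich libraries, at 0.92 (0.311), and with age, at 1.13 (0.211). Rbm3 held 2 to 11 counts per library, with ratios of 0.783 (0.376 to 1.61) and 1.12 (0.574 to 2.20) to CTRL in MODEL1 and MODEL2.

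**Figure D4:**
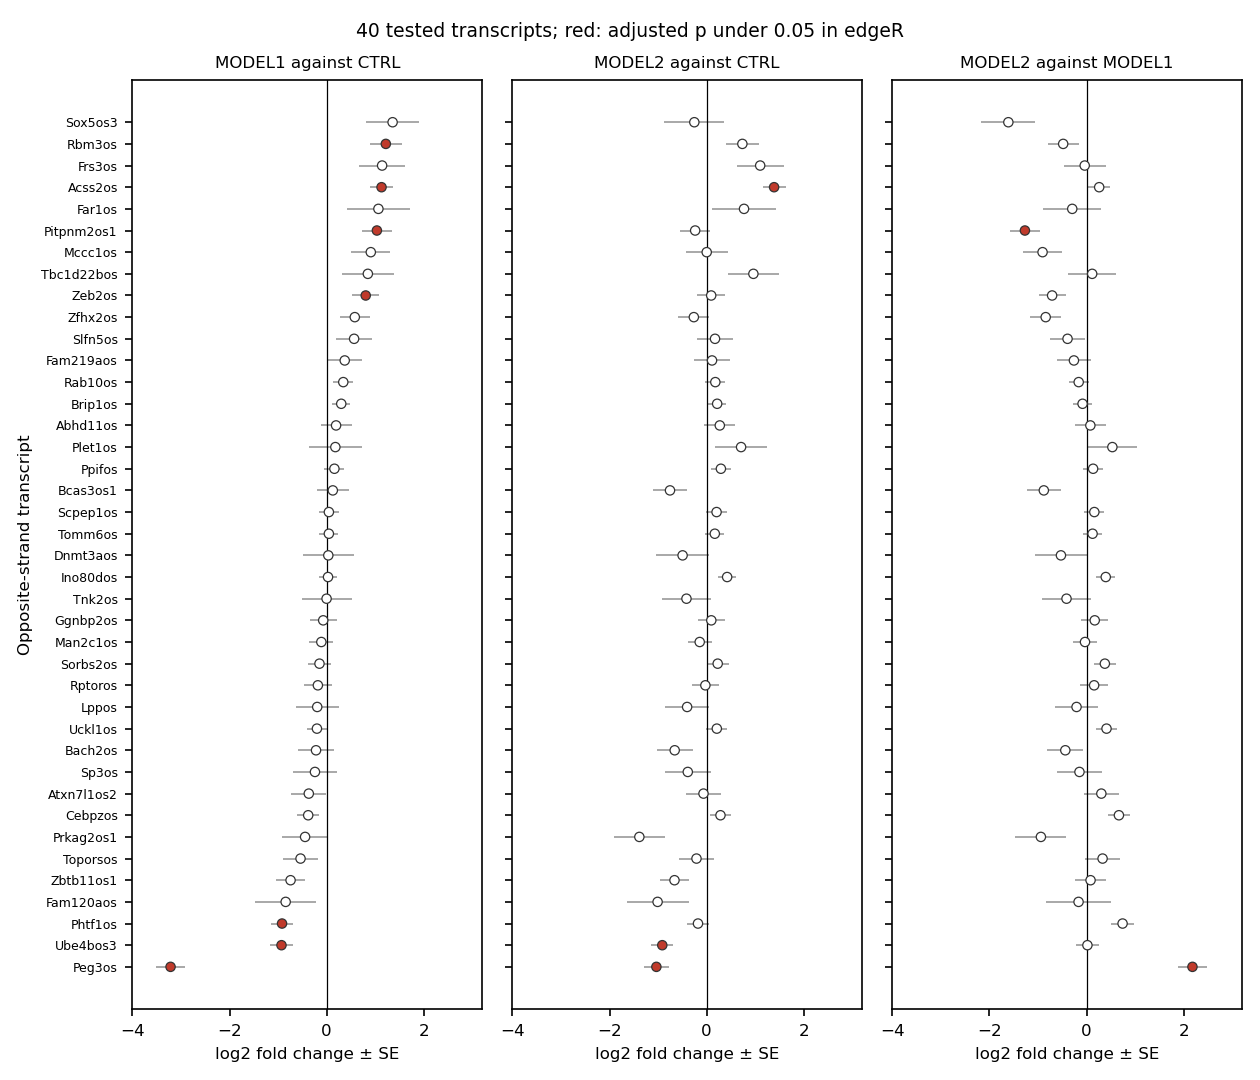
Log2 fold changes with their standard errors (bars) of the 40 tested members in the 3 comparisons, from edgeR, ordered by the MODEL1 value, with filled points for an adjusted p under 0.05. Acss2os is above 0 and Peg3os and Ube4bos3 are below 0 in both models against CTRL.

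Zeb2os and Zeb2 were the pair in which both genes were higher in MODEL1. Zeb2 is a zinc finger repressor that promotes the epithelial-to-mesenchymal programme, and liver macrophages and stellate cells also express it. Zeb2os, at chr2:45110707-45114087 on the plus strand, lies inside Zeb2 and shares 653 of 1990 exon bases with it. Zeb2os held 48, 76 and 50 counts in CTRL, 124, 116 and 121 in MODEL1 and 84, 46 and 73 in MODEL2. Zeb2 held 11, 5 and 2 in CTRL, 47, 29 and 40 in MODEL1 and 25, 20 and 16 in MODEL2. MODEL1 was above CTRL in every library for both, and MODEL2 was above CTRL in every library for Zeb2 only.

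For Zeb2os the log2 fold change was 0.80 ± 0.28 (SE) in MODEL1 (edgeR adjusted p = 0.0402) and 0.09 ± 0.28 in MODEL2 (edgeR adjusted p = 0.879). MODEL2 against MODEL1 gave -0.71 ± 0.28 (edgeR adjusted p = 0.137), and passed with only the 2 models fitted, at -0.72 (0.0455). The MODEL1 call of Zeb2os was lost with DESeq2 (adjusted p = 0.0697), with each other filter on low counts, with age as a covariate, with only the 2 groups fitted, without the Rn45s-rich libraries, and without any of 5 of the 6 libraries compared, CTRL replicates 1 and 3 and each MODEL1 replicate, with log2 fold changes of 0.62 to 1.07 over the 12 settings that ended it, the replicate block included. For Zeb2 the values were 2.44 ± 0.47 (edgeR adjusted p = 0.000450), 1.65 ± 0.49 (edgeR adjusted p = 0.0254) and -0.78 ± 0.40 (edgeR adjusted p = 0.279). The MODEL2 call of Zeb2 was lost without CTRL replicate 2 (edgeR adjusted p = 0.0520) or 3 (0.1098), without MODEL2 replicate 1 (0.0851) or 2 (0.0724), with only the 2 groups fitted, at 1.64 (0.0620), and with age as a covariate, at 3.71 (0.0754). The share of the pair's counts held by Zeb2os averaged 90.4% ± 7.96 over CTRL, 75.9% ± 3.80 over MODEL1 and 76.3% ± 6.20 over MODEL2 (SD, n = 3), with an exact two-sided permutation p of 0.1 for MODEL1 against CTRL, the smallest that 3 against 3 allows. Macrophage markers, of which 5 of 6 were detected with Adgre1 at 0, summed to 55.4 to 114 CPM in MODEL1, 23.5 to 44.4 in CTRL and 27.7 to 40.3 in MODEL2. The 7 stellate and fibroblast markers each had a count in some library. They summed to 19.7 to 24.6 CPM in MODEL1, 6.72 to 8.20 in CTRL and 3.47 to 8.05 in MODEL2. The CTRL and MODEL2 sums lay below the 9.23 to 13.7 CPM that 3 counts stand for, so this list rests on very few counts. The part of either marker list in the Zeb2 and Zeb2os result was not tested.

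Another 4 partners passed the test while their opposite-strand transcripts did not or were too rare. Of the 17 tested partners, 4 (23.5%) differed in MODEL1 against CTRL, 2 (11.8%) in MODEL2 against CTRL and 2 (11.8%) between the models, near the 22.8%, 13.3% and 7.28% of all genes. Mkln1, which encodes muskelin, a subunit of a ubiquitin ligase, held 0, 5 and 7 counts in CTRL, 38, 34 and 24 in MODEL1 and 2, 7 and 8 in MODEL2. All MODEL1 libraries were far above the rest, with log2 fold changes of 2.75 ± 0.65 (SE) against CTRL (edgeR adjusted p = 0.00317) and -2.35 ± 0.62 for MODEL2 against MODEL1 (edgeR adjusted p = 0.0235). The MODEL1 call was lost with age as a covariate, at 1.56 (edgeR adjusted p = 0.375), and without the Rn45s-rich libraries, at 2.34 (0.0642). The call between the models was lost without any of 5 of the 6 libraries, MODEL1 replicate 1 or 2 or any MODEL2 replicate, at adjusted p-values of 0.0501 to 0.127 in edgeR. Mkln1os, which starts 38 bp away and shares 39 bases, held 4, 1 and 6, then 11, 1 and 2, then 1, 0 and 1 counts, and its MODEL1 to CTRL ratio was 1.18 (0.499 to 2.88).

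Ctcfl, the germline paralogue of the insulator protein CTCF, showed the reverse direction. It held 108, 148 and 68 counts in CTRL, 7, 2 and 16 in MODEL1 and 7, 27 and 9 in MODEL2, so that every model library was below CTRL. It fell by 3.98 ± 0.51 (SE) on the log2 scale in MODEL1 (edgeR adjusted p = 4.0e-06), and its log2 fold change in MODEL2 was -3.01 ± 0.47 (edgeR adjusted p = 0.000115). Ctcflos held a single count, in CTRL replicate 3. With age as a covariate the MODEL2 value was -1.61 and the call was lost (edgeR adjusted p = 0.503).

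Plet1, a surface protein of progenitor epithelia, and Topors, a ubiquitin and SUMO ligase, were nearer the threshold. Plet1 held 29, 23 and 22 counts in CTRL, 5, 8 and 22 in MODEL1 and 15, 19 and 19 in MODEL2, with a MODEL1 log2 fold change of -1.35 ± 0.45 (edgeR adjusted p = 0.0315, DESeq2 0.0895). The call was lost without CTRL replicate 1 (0.0804) or 2 (0.0574), without MODEL1 replicate 1 (0.130) or 2 (0.0954), with no filter (0.0725) or the 1 CPM filter (0.0534) and with only the 2 groups fitted (0.0551). It was also lost with age as a covariate, at -1.26 (0.284), and without the Rn45s-rich libraries, at -1.63 (0.170). Plet1os held 11, 14 and 8, then 24, 5 and 16, then 33, 15 and 11 counts and overlapped in all groups. Topors held 42, 33 and 35 counts in CTRL, 42, 24 and 45 in MODEL1 and 72, 51 and 69 in MODEL2, and MODEL2 was above MODEL1 by 0.94 ± 0.28 (edgeR adjusted p = 0.0457, DESeq2 0.0591). Leaving out any 1 of these 6 libraries ended that call, at edgeR adjusted p-values of 0.0539 to 0.207. Toporsos, protein-coding in GENCODE, held 23, 47 and 56, then 40, 20 and 45, then 41, 30 and 47 counts, again without separation of the groups.

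The member's share of the pair's counts describes how the pair divided in each library. Shares were computed for 43 pairs and 129 comparisons, including 2 pairs whose partner was at 0 throughout and whose share was therefore 100%. Groups were separated in 18 of the 129, and in 12 of 33 where both genes were tested. The share among other pairs of genes was not computed, so these counts are not read as a result about the pairs. With 3 against 3 libraries, full separation has p = 0.1 in the exact permutation test, so some separations arise without any difference. No exact permutation p could fall below 0.1, and none passed an adjustment over them (the lowest adjusted value was 0.717). Cebpzos averaged 53.7% ± 2.84 of its pair over CTRL, 42.2% ± 3.43 over MODEL1 and 49.4% ± 1.78 over MODEL2 (SD, n = 3), and MODEL1 did not overlap either other group. Rab10os held 81.2% ± 4.92 in CTRL, 89.2% ± 1.77 in MODEL1 and 88.9% ± 0.504 in MODEL2, with both models above CTRL in every library. Zbtb11os1, opposite a zinc finger transcription factor, held 67.7% ± 5.49, 68.4% ± 4.53 and 54.6% ± 3.60, with MODEL2 below the other groups. Toporsos held 48.1% ± 2.35 in MODEL1 and 37.9% ± 2.26 in MODEL2 without overlap, and CTRL, at 51.9% ± 14.4, overlapped MODEL1. Phtf1os held 94.0% ± 2.42, 88.7% ± 1.78 and 94.6% ± 3.52, with MODEL1 below the others. Man2c1os was separated at 83.4% ± 4.001 in CTRL and 91.2% ± 3.43 in MODEL1, and Plet1os at 30.7% ± 6.22 and 54.4% ± 24.6. Each of these separations had p = 0.1 in the exact permutation test.

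**Figure D5:**
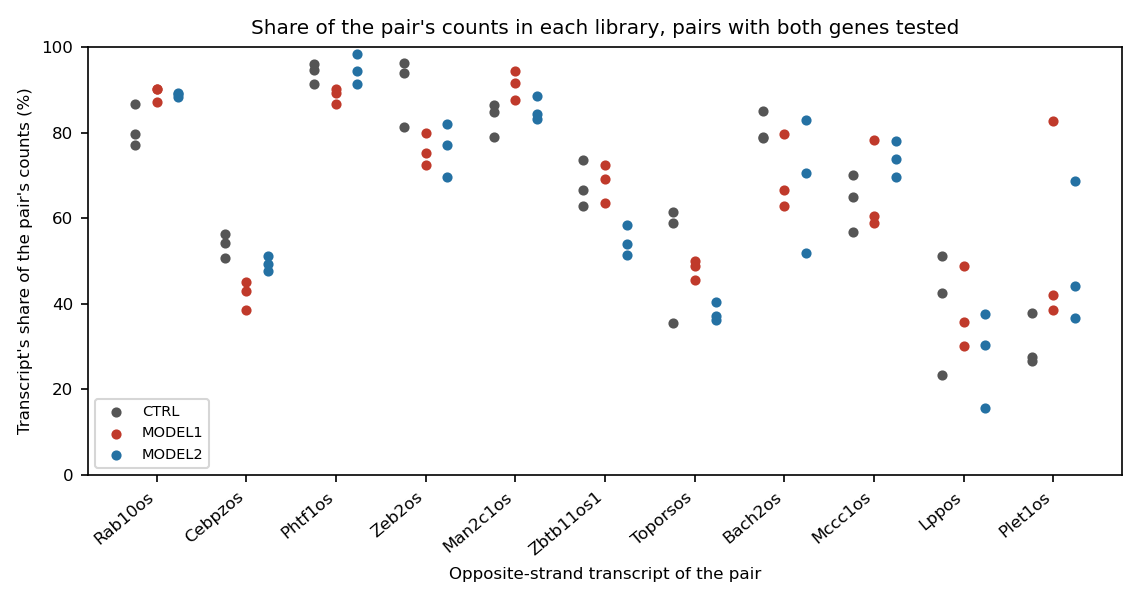
Share of the pair's counts held by the opposite-strand transcript in each library (points, percent), for pairs in which both genes were tested, by group. Cebpzos is lowest in the 3 MODEL1 libraries and Rab10os lowest in the 3 CTRL libraries.

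Several members came near the threshold without passing it. Sox5os3, inside the gene of the transcription factor Sox5, held 7, 3 and 7 counts in CTRL, 17, 13 and 22 in MODEL1 and 6, 6 and 3 in MODEL2. MODEL1 was above the other groups in every library, with log2 fold changes of 1.36 ± 0.54 against CTRL (edgeR adjusted p = 0.0797) and -1.61 ± 0.55 for MODEL2 against MODEL1 (edgeR adjusted p = 0.0852). Frs3os, opposite an adaptor of fibroblast growth factor receptors, held 8, 4 and 9, then 14, 17 and 24, then 16, 18 and 14 counts, with 1.14 ± 0.48 in MODEL1 (edgeR adjusted p = 0.0929) and 1.10 ± 0.48 in MODEL2 (0.148). Zbtb11os1 held 59, 62 and 53, then 50, 27 and 47, then 55, 27 and 37, with -0.74 ± 0.30 in MODEL1 (edgeR adjusted p = 0.0853). Prkag2os1, opposite a regulatory subunit of the energy sensor AMPK, held 39, 7 and 30, then 16, 31 and 15, then 11, 10 and 9, with -1.39 ± 0.52 in MODEL2 (edgeR adjusted p = 0.0856). CTRL replicate 2 was its lowest library, and without that library the MODEL2 value was -1.80 (edgeR adjusted p = 0.00947). Cebpzos held 109, 132 and 111, then 106, 73 and 149, then 173, 146 and 144 counts, and MODEL2 exceeded MODEL1 in every library in CPM, by 0.67 ± 0.23 on the log2 scale (edgeR adjusted p = 0.0811). With only the 2 models fitted that difference passed, at 0.66 (0.0381).

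The remaining tested members did not pass the test in any comparison as fitted with 1 coefficient per group, and their log2 fold changes stayed within 1.07 of 0 in MODEL1 against CTRL. Zfhx2os, opposite a homeobox gene, held 68, 37 and 142 counts in CTRL, 123, 146 and 156 in MODEL1 and 69, 61 and 86 in MODEL2, and Zfhx2 5 in all. CTRL spanned most of the range of both models. Without CTRL replicate 3, the highest of CTRL, MODEL1 was above CTRL by 1.18 on the log2 scale (edgeR adjusted p = 0.00410), against 0.58 ± 0.31 with it (0.203). With age as a covariate Zfhx2os passed as lower in MODEL2, at -1.84 against CTRL (edgeR adjusted p = 0.0440) and -1.52 against MODEL1 (0.00553), and with only the 2 models fitted it gave -0.85 (0.0114). Within CTRL the age term rests on that same replicate 3, aged 17 weeks against 13 for the others, so the age fit is not separate from it. Bcas3os1, opposite a cytoskeletal regulator of cell migration, held 59, 26 and 71, then 51, 68 and 78, then 27, 22 and 48 counts, with -0.88 ± 0.34 for MODEL2 against MODEL1 (edgeR adjusted p = 0.138). It passed there with age as a covariate, at -1.44 (0.0434), and in MODEL2 against CTRL without CTRL replicate 2, at -1.03 (0.0446). Mccc1os, opposite a subunit of the leucine-degrading enzyme methylcrotonoyl-CoA carboxylase, held 21, 13 and 21, then 30, 58 and 29, then 17, 25 and 16 counts, with 0.91 ± 0.40 in MODEL1 (edgeR adjusted p = 0.114). Atxn7l1os2 and Far1os held 295 and 75 counts while their partners were at 0 in all 9 libraries, which for each library allows up to 9.23 to 13.7 CPM. Far1os held 4, 5 and 5, then 13, 10 and 12, then 8, 2 and 16 counts, with 1.07 ± 0.65 in MODEL1 (edgeR adjusted p = 0.267).

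The 13 other tested members had log2 fold changes of -1.01 to 0.96 over the 3 comparisons, with edgeR adjusted p-values of 0.267 or more. Man2c1os, opposite a cytosolic alpha-mannosidase, held 83, 56 and 101 counts in CTRL, 102, 66 and 92 in MODEL1 and 84, 76 and 70 in MODEL2. Ggnbp2os, opposite a gametogenetin-binding protein, held 50, 71 and 68, then 67, 77 and 67, then 95, 64 and 60 counts. The groups overlapped in counts for both. Rptoros, opposite the mTORC1 scaffold Raptor, held 38, 49 and 45, then 43, 36 and 61, then 53, 39 and 48. Abhd11os, opposite a mitochondrial hydrolase, held 46, 29 and 23, then 44, 29 and 61, then 50, 40 and 36. Bach2os, opposite a transcriptional repressor of lymphocytes, held 34, 30 and 52, then 44, 27 and 47, then 14, 39 and 24. None of these 3 separated the groups.

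Slfn5os, opposite a Schlafen gene, held 17, 21 and 29 counts in CTRL, 55, 26 and 36 in MODEL1 and 26, 20 and 35 in MODEL2. Fam219aos held 18, 20 and 17, then 29, 22 and 34, then 23, 15 and 26 counts. For Fam219aos the MODEL1 libraries all exceeded CTRL, with 0.37 ± 0.36 on the log2 scale (edgeR adjusted p = 0.512). Tbc1d22bos, opposite a Rab GTPase-activating protein gene, held 14, 4 and 13, then 14, 33 and 16, then 14, 33 and 16, and Sp3os, opposite a zinc finger transcription factor, 27, 15 and 11, then 25, 13 and 14, then 14, 9 and 20. Lppos, opposite a focal adhesion protein, held 17, 11 and 24, then 19, 15 and 19, then 21, 7 and 14, while Lpp held 23 to 36 counts in CTRL. Both genes of the Lpp pair start within 81 bp of each other and overlapped between groups. Tnk2os, opposite a tyrosine kinase, held 15, 22 and 8, then 20, 14 and 20, then 20, 5 and 12, and Dnmt3aos, opposite a de novo DNA methyltransferase, 16, 5 and 13, then 11, 15 and 14, then 6, 12 and 7. Fam120aos held 19, 14 and 3, then 8, 10 and 5, then 7, 5 and 7 counts and starts 270 bp from Fam120a, with no shared exon base.

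Members below the filter had their own patterns, which depth limits. Srrm4os, opposite a splicing regulator of neural exons, held 11, 3 and 12 counts in CTRL, 1, 0 and 2 in MODEL1 and 0 in every MODEL2 library. It was named because it was at 0 in 1 group with at least 10 counts in another. A fall was thus fixed by that choice, and the values only describe the counts. The ratio of scaled counts to CTRL was 0.107 in MODEL1 (0.0208 to 0.350). In MODEL2 the ratio was 0 (0 to 0.155). Taking 3 counts over the group as the floor gave 8.55-fold, a value that leaves out the counting error of CTRL. Srrm4 held 10, 3 and 11 in CTRL, 0, 3 and 1 in MODEL1 and 7, 6 and 7 in MODEL2. Srrm4os's MODEL2 share of the pair was 0, against 51.5% ± 1.32 in CTRL (SD, n = 3). The pair shares 68 exon bases, and neither gene was tested. Slc13a2os, singled out after its values were seen, held 7, 3 and 16 counts in CTRL, 1, 0 and 0 in MODEL1 and 3, 7 and 3 in MODEL2, and DESeq2, run without that filter, called it in MODEL1 at -4.79 ± 1.50 (adjusted p = 0.0176). Slc13a2, a dicarboxylate transporter gene, was at 0 in all libraries. The other members outside the named ones, 57 with 1 to 64 counts, are covered by the counts above.

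Wnt feedback genes, which beta-catenin is known to induce, were listed beside the members. Of 16 such genes 3 passed the filter, which a gene could do through the group in which it was high. Against CTRL, edgeR called 1 of the 3 (33.3%) as higher in each model, beside 22.8% and 13.3% of all genes. The median of the 3 was 0.11 for MODEL1 and -0.13 for MODEL2 on the log2 scale, so they did not rise together. With 3 genes, these shares are not read as a result about Wnt feedback. The called gene was Notum, a secreted lipase that inactivates Wnt ligands, which passed the filter through its model libraries. It held 1, 0 and 0 counts in CTRL, 63, 73 and 31 in MODEL1 and 27, 39 and 17 in MODEL2. Its own opposite-strand transcript, Notumos, is not among the symbols of the count table, so Notum is no partner of a member. Between the models edgeR and DESeq2 each called 0 of the 3, with 1 at an unadjusted p under 0.05. Only Dlx1as, with 1 count, and Hras, a protein-coding gene whose name fits by coincidence, with 15, matched the like rule for symbols ending in as, so that ending gave no second set to set beside the members.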

How the data were processed

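RNA of 9 mouse livers was sequenced, and the submitters deposited raw counts per gene symbol without normalization. The tools were HISAT2 2.1.0, HTSeq 0.11.2 and Trimmomatic 0.38 with build mm10, per the submitters' processing notes. The role of each tool, the annotation and the strand setting are not given in the sources used here. Groups came from the labels.

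Counts were analysed with edgeR 4.0.16 in R 4.3.3: filterByExpr (minimum count 10), TMM scaling, a quasi-likelihood F test on all 9 libraries with 1 coefficient per group, and Benjamini-Hochberg adjustment over 2639 genes at 0.05. The SE of a log2 fold change is its size over the square root of F. Scripts were tested on simulated data. Ratios of untested genes carry exact 95% counting intervals, which cover counting error only. Libraries of a group differed by more than sampling noise (chi-square per degree of freedom 3.11 to 16.8), so none was counted as a repeat.

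Symbols were placed with GENCODE M21 gene models on mm10: of 24419, 23333 matched directly and 646 by synonym. Start-site windows came from RefSeq (GRCm38.p6).

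Named were all tested members, members whose partner was called, the 12 largest, and members at 0 in 1 group with at least 10 counts in another. Members, lists and the rule were chosen with earlier results of these data known. Alternatives were DESeq2 1.42.0, RLE scaling, other filters, fitting 2 groups, age as a covariate, a replicate block, and leaving out each library or the Rn45s-rich libraries together.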

Additional observations from a re-analysis of the deposited data

Results flagged for a closer look

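In 4 genes the change from CTRL differed between the 2 models by the test of that difference, MODEL2 against MODEL1 in edgeR's quasi-likelihood fit with Benjamini-Hochberg adjustment. Peg3os was 2.18 higher on the log2 scale in MODEL2 than in MODEL1 (adjusted p = 5.0e-05), with all 3 MODEL2 libraries above all 3 MODEL1 libraries. Pitpnm2os1 gave -1.27 (adjusted p = 0.0144) and Mkln1, the partner of Mkln1os, -2.35 (adjusted p = 0.0235), each lower in all 3 MODEL2 libraries than in any MODEL1 library. Topors, the partner of Toporsos, gave 0.94 (adjusted p = 0.0457) while DESeq2 gave an adjusted p of 0.0591. Leaving out 1 library could end each of these calls except that of Peg3os. What accounts for these differences was not tested, and MODEL2 mice were also 1 to 4 weeks older than MODEL1 mice.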

How the results depend on the processing

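No alternative run reversed the direction of a called member or partner. MODEL1 against CTRL gave 602 called genes, 7 members and 4 partners, which became 299, 2 and 2 with age as a covariate, and 299 genes and 1 member without the Rn45s-rich libraries. Leaving out 1 library at a time gave 497 to 602 genes, 4 to 7 members (4 without MODEL1 replicate 1) and 3 to 5 partners. MODEL2 against CTRL gave 350 genes, 3 members and 2 partners. It became 71 genes and 0 partners with age, 210 genes without the Rn45s-rich libraries and 1 partner when only the 2 groups were fitted. Leaving out 1 library gave 221 genes (without CTRL replicate 1) to 379, 2 to 5 members (5 without CTRL replicate 2, 2 without MODEL2 replicate 1 or 2) and 1 to 2 partners (1 without CTRL replicate 3 or MODEL2 replicate 1 or 2). MODEL2 against MODEL1 gave 192 genes, 2 members and 2 partners. It became 101 genes, 5 members and 1 partner with age, 62, 1 and 0 without the Rn45s-rich libraries, and 6 members when only the 2 groups were fitted. DESeq2, RLE scaling and each other filter on low counts gave 1 partner. Leaving out 1 library gave 85 genes (without MODEL2 replicate 1) to 142, 1 to 2 members (1 without MODEL1 replicate 2 or MODEL2 replicate 1 or 3) and 0 to 1 partners (1 without MODEL1 replicate 3, otherwise 0). The cause was not tested beyond the fewer libraries fitted. With a replicate block the 192 genes became 125 and the 2 partners became 1; replicate numbers only name the libraries, since same-numbered libraries had correlations of -0.121 to 0.0103 and 0 of 9 libraries correlated best with their own number. The replicate block also ended the call of Zeb2os in MODEL1 (adjusted p = 0.0584). Depth limits the rest: 60 of 100 members were too rare to test.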

Other observations

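Tbx3, a T-box repressor that beta-catenin induces in liver and the partner of Tbx3os2, did not pass edgeR's filter on low counts and was named after its values were seen. It held 1, 1 and 0 counts in CTRL, 8, 21 and 8 in MODEL1 and 5, 3 and 3 in MODEL2, so that every model library was above every CTRL library. DESeq2, run without that filter, gave a log2 fold change of 4.04 ± 1.31 (SE) in MODEL1 against CTRL (adjusted p = 0.0232). Tbx3os2 lies beyond the end of Tbx3 with no shared exon base and held 2 counts, 1 in MODEL1 replicate 1 and 1 in MODEL2 replicate 2. Hnf4a, the master regulator of hepatocyte identity, held 46 counts and Hnf4aos 33, and the groups overlapped for both.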
